A study of Mus musculus with 10 samples.

Results

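The antibody arm of a ChIP-seq study of TET2 in mouse embryonic stem (ES) cells was examined, in which the same antibody was used on cells with TET2 and on cells without it. Its 4 deposited peak lists, 2 from wild-type and 2 from Tet2 knockout cells, were merged wherever peaks on chromosomes 1 to 19, X or Y shared at least 1 bp. The merging gave 41504 regions, against 79350 when all 8 peak lists of the study were merged. A total of 11503 regions (27.7%) held a peak of both wild-type lists and of neither knockout list and are called wild-type-only here. Another 8679 (20.9%) held a peak of at least 1 list of each genotype, and 2665 (6.42%) held knockout peaks alone. The remaining 18657 (45.0%) held a peak of 1 wild-type list and no knockout list.

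The wild-type cells carried floxed alleles (Tet2fl/fl) and untagged TET2, and the knockout cells were Tet2-/-. Both were immunoprecipitated with a rabbit polyclonal antibody raised against the N-terminal part of TET2. All cells were grown on gelatin in medium with serum, LIF, a GSK-3 inhibitor (CHIR99021) and a MEK inhibitor (PD0325901), and chromatin was fixed with disuccinimidyl glutarate and then formaldehyde. The labels give neither the exon deleted, the number of knockout clones, nor whether replicates were separate cultures. The spread between replicates may therefore be technical. Expression was not measured, so the ES cell identity could not be checked against marker genes. The study's other 4 peak lists came from an anti-FLAG resin on cells with FLAG-tagged TET2 and on untagged parental cells; they did not enter the classes and are used below only as a second readout.

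TET2 is a dioxygenase that oxidises 5-methylcytosine to 5-hydroxymethylcytosine and further products, a route to unmethylated cytosine. Unlike TET1 and TET3 it has no CXXC DNA-binding domain of its own, and other proteins are held to bring it to chromatin. Where a knockout makes no protein that the antibody binds, its peaks come from something other than the target, which is why a knockout is the usual control for an antibody. The authors' fold of a peak is the enrichment at its summit over the control signal, as MACS2 writes it, and was used only to describe or rank peaks within a list.

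Because gene lists differed in which class lay at their promoters, the 250 bases before the gene start are shown for 3 promoters of each kind. They were the pluripotency or LIF pathway promoters with the highest-ranked wild-type-only regions and the germline promoters with the highest-ranked regions shared with the knockout. Capitals mark each CpG, the dinucleotide that DNA methyltransferases and TET enzymes act on. The sequences run 5′ to 3′ on the gene's strand and are from RefSeq, build GRCm38.p6, which has the coordinates of mm10. Pou5f1 encodes the POU factor OCT4 (chr17:35505782-35506031, plus strand), Socs3 encodes a feedback inhibitor of LIF signalling (chr11:117969367-117969616, minus strand) and Stat3 encodes its transcription factor (chr11:100939541-100939790, minus strand). Their wild-type-only regions had summits in wild-type replicate 1 at −22, 73 and −284 bp from the start.
Pou5f1: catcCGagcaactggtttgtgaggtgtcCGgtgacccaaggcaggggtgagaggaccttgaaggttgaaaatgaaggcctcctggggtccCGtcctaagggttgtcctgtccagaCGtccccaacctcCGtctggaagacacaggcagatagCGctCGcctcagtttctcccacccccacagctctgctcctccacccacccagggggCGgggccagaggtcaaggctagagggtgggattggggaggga
Socs3: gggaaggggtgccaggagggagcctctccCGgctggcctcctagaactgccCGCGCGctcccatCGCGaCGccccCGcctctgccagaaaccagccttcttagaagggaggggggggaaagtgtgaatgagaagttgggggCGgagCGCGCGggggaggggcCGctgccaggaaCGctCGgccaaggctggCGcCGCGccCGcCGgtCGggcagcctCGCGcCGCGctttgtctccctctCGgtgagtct
Stat3: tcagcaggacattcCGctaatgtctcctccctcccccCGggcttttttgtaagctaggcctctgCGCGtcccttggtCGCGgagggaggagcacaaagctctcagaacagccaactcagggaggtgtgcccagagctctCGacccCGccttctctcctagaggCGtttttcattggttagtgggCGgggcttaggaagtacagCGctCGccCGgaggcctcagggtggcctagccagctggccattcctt
Hormad1 encodes a protein of the meiotic chromosome axis (chr3:95559427-95559676, plus strand), Stk31 a kinase-like protein of germ cells (chr6:49395289-49395538, plus strand) and Tdrd1 a Tudor-domain protein of the piRNA pathway (chr19:56825959-56826208, plus strand). Their shared regions had summits in wild-type replicate 1 at −55, −53 and 67 bp.
Hormad1: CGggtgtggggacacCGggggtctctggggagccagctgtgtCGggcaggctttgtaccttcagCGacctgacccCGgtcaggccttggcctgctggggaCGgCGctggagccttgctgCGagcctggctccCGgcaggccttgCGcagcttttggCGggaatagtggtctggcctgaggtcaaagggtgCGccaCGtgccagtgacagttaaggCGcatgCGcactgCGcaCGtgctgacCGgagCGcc
Stk31: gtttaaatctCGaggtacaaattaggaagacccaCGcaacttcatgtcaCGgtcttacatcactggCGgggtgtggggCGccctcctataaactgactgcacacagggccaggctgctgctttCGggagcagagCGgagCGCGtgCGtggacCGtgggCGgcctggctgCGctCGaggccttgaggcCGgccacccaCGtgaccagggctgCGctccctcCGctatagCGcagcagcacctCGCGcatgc
Tdrd1: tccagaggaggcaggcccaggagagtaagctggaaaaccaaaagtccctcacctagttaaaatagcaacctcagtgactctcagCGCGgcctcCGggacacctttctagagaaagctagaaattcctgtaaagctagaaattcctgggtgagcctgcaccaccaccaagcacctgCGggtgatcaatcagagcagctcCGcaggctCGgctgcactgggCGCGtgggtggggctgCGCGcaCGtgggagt
The 3 wild-type-only promoters held 8, 26 and 13 CpGs in these 250 bases, and the 3 germline promoters 19, 21 and 11. The letters CACGTG, the E-box bound by MYC and MAX among other factors, occurred 2 times before Hormad1 and 1 time each before Stk31 and Tdrd1. They were absent from the other 3 sequences.

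Wild-type lists were longer than knockout lists, but the replicates of each genotype differed widely. On the 21 chromosomes the lists held 38536 and 18820 wild-type peaks and 2259 and 11696 knockout peaks, so the groups did not overlap. The difference in mean log2 peak number was 2.39, a 5.24-fold ratio of geometric means, with p = 0.33 in a two-sided exact permutation test (n = 2 and 2), the smallest p this design allows. Within same-numbered lists it was 4.09 for replicate 1 and 0.686 for replicate 2, and without knockout replicate 1 the difference was 1.20. Read depth was not given in the sources used here, so fewer binding sites and a shallower library cannot be told apart.

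Median peak width was 278 and 235 bp in the wild-type lists and 183 and 226 bp in the knockout lists, a difference of 52.0 bp (exact permutation p = 0.33, n = 2 and 2). The median fold was 6.61 and 6.22 in wild type and 7.21 and 6.40 in knockout, and here the groups overlapped (exact permutation p = 0.667, n = 2 and 2). The strongest peak of each list had a fold of 52.2, 33.1, 41.7 and 52.7 in wild-type replicates 1 and 2 and knockout replicates 1 and 2. Strong peaks were thus called in both knockout lists too.

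**Figure D1:**
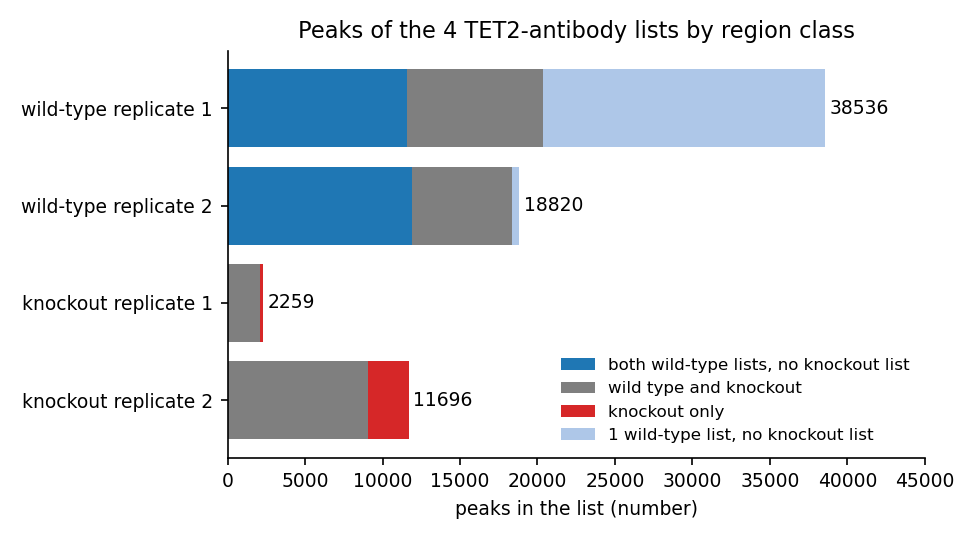
Number of peaks in each of the 4 TET2-antibody lists (horizontal axis), coloured by the class of the merged region that holds the peak. Wild-type replicate 1 held 38536 peaks, of which 18183 lay in regions found in that list alone, while knockout replicate 1 held 2259 peaks, of which 2120 lay in regions shared with wild type.

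The lists were nearly nested within each genotype. Of the wild-type replicate 2 peaks 97.1% lay in a region with a wild-type replicate 1 peak, against 45.7% the other way round. Of the knockout replicate 1 peaks 99.8% lay in a region with a knockout replicate 2 peak. Across genotypes, 93.4% of knockout replicate 1 peaks and 76.6% of knockout replicate 2 peaks shared a region with wild-type replicate 1. Most of what the antibody enriched in knockout cells was therefore called in wild-type cells too. The reverse shares were 22.8% of wild-type replicate 1 and 34.3% of wild-type replicate 2 peaks in a region with a knockout replicate 2 peak.

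Knockout replicate 2 alone set nearly all of the boundary between the classes. Without knockout replicate 1 the wild-type-only regions numbered 11504 and the shared regions 8675. Without knockout replicate 2 there were 15710 wild-type-only regions, the shared regions dropped to 2043 and the knockout-only regions to 144. On the wild-type side, requiring replicate 1 alone gave 29775 regions absent from the knockout, and without wild-type replicate 1 the knockout-only regions numbered 5685.

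The wild-type-only regions had a median width of 367 bp and covered 4847 kb. Of them 64.1% overlapped the span of a protein-coding gene, beside 62.7% of all regions of the arm. A share of 36.0% (4137 regions, exact 95% binomial interval 35.1 to 36.8) lay within 1 kb of a gene start, near the 35.5% of all regions. Away from starts, 31.2% lay inside a span and 23.9% in flanks within 50 kb, and 8.88% lay more than 50 kb from any gene span. The intervals here cover counting error only, and regions are not replicates. The shared regions had a median width of 448 bp, and 52.6% of them (4569 regions, interval 51.6 to 53.7) lay at a gene start. A merged region spans all its peaks, so regions joined from more lists tend to be wider by construction. Widths are therefore not compared between classes. In the 1729 regions with a peak in all 4 lists the median width was 585 bp and the share at gene starts 61.5%. The knockout-only regions had a median width of 180 bp. They were mostly away from starts (20.3%, interval 18.8 to 21.8), and 22.2% were more than 50 kb from a gene.

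At list level the direction was the same: 36.6% and 43.6% of wild-type peaks lay at gene starts, against 53.0% and 45.3% of knockout peaks. The groups did not overlap, and the difference was -9.06 percentage points (exact permutation p = 0.33, n = 2 and 2). The share was lower the longer the list in this arm. It was so among the FLAG-resin lists too, with 25.1% in the longest and 45.0% in the shortest. Over whole lists, genotype and list length therefore went together. Among the strongest 3854 peaks of wild-type replicate 1, ranked by q, 26.0% lay at gene starts. Among the strongest 1882 of wild-type replicate 2 it was 28.4%. The strongest 1170 peaks of knockout replicate 2 had 48.4%, and all 2259 of knockout replicate 1 had 53.0%. At these shorter lengths the wild-type shares were still the lower ones. Whether genotype or another difference between the libraries set the shares was not tested. Because the classes were built from the same lists, the difference of -16.7 points between wild-type-only and shared regions was not tested over samples.

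The median folds of both classes were close, but the classes had unequal entry rules. In wild-type replicate 1 the median fold was 8.70 in wild-type-only and 7.89 in shared regions, and in wild-type replicate 2 it was 6.22 and 6.63. The class with the higher median differed between the replicates. By definition, each wild-type replicate had called all 11503 wild-type-only regions. Shared regions could lack 1 of these calls: 8609 had a replicate 1 peak and 5987 a replicate 2 peak. The medians therefore cannot tell which class was stronger. Regions with a peak in all 4 lists, a stricter rule, had medians of 10.5 and 7.44 in the wild-type lists. Both were above the wild-type-only medians. In the knockout lists the medians of these regions were 7.48 and 11.7. Knockout-only regions were weaker within knockout replicate 2, with a median of 5.95 against 6.64 for shared regions. The regions of 1 wild-type list had the lowest medians, 5.63 in replicate 1 and 5.19 in replicate 2.

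The strongest wild-type peaks were shared with the knockout more often than the weakest. Within wild-type replicate 1, 36.2% of the strongest 10% of peaks by −log10 q had a knockout peak in the same region, against 11.6% of the weakest 10%. For wild-type replicate 2 these shares were 43.7% and 29.5%. In the other direction, 93.9% of the strongest 10% of knockout replicate 2 had a wild-type peak, and 71.6% of the weakest 10%. Agreement between the wild-type lists followed rank as well: 99.2% of the strongest 10% of wild-type replicate 1 shared a region with replicate 2, and 9.03% of the last.

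Among wild-type-only regions, the strongest lay away from gene starts. When they were ranked by their mean percentile of −log10 q in the 2 wild-type lists, 13.4% of the strongest 10% lay within 1 kb of a gene start, and this share was higher in each of the following rank groups, up to 55.9% in the last. Shared regions had no such order, with 43.8% in the strongest 10%, 58.3% in the third rank group and 43.1% in the last. A weak wild-type-only region was thus about as often at a gene start as a shared one.

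**Figure D2:**
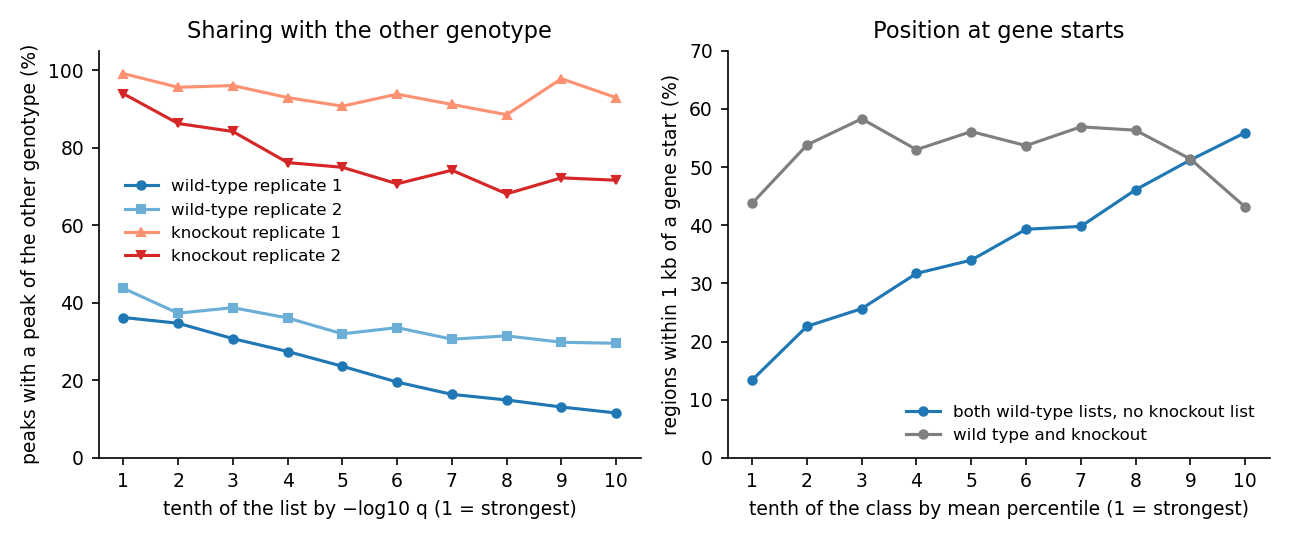
Left, share of the peaks of each list that share a region with a peak of the other genotype (vertical axis, percent), in 10 rank groups of equal size ordered by −log10 q from strongest to weakest. Right, share of regions within 1 kb of a gene start (vertical axis, percent) in 10 rank groups of the class ordered by mean percentile of −log10 q; it goes from 13.4% to 55.9% in wild-type-only regions.

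Summits were placed closely where lists shared a region. In wild-type-only regions the summits of the wild-type lists lay a median of 30 bp apart, and 69.6% were within 50 bp. In the regions of all 4 lists, wild-type replicate 1 and knockout replicate 2 summits were also a median of 30 bp apart. The folds of a region in the 2 lists were correlated across these regions, with a Spearman rho of 0.667 between the wild-type lists over 11503 wild-type-only regions and of 0.569 between wild-type replicate 1 and knockout replicate 2 over 1729 regions. These correlations are across regions that share libraries and sequence composition, and are given as a description. Few wild-type-only regions had a knockout peak just outside them: 366 (3.18%) within 500 bp and 586 within 1000 bp.

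Close to genes, both classes were centred on the start itself. Among 3270 wild-type-only regions whose wild-type replicate 1 summit lay within 1 kb of a listed start, the median summit position was −16 bp, 54.3% were upstream and 47.2% lay within 100 bp. Among 3577 shared regions the median was −4 bp, with 51.1% upstream and 44.2% within 100 bp. The profiles nearly coincided.

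**Figure D3:**
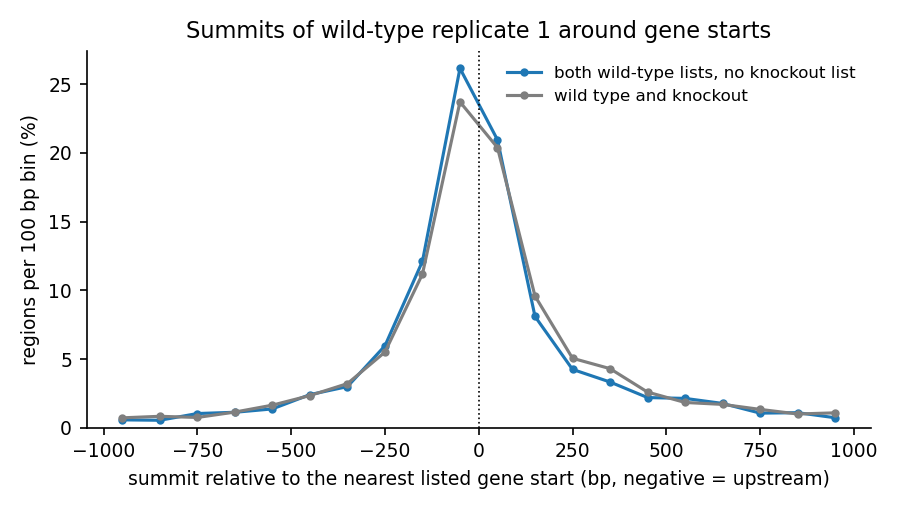
Position of the wild-type replicate 1 summit relative to the nearest listed gene start (horizontal axis, bp, negative upstream) for regions within 1 kb, as the percent of regions per 100 bp bin. Both classes peak in the bin just upstream of the start, which holds 26.1% of the wild-type-only regions.

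RefSeq promoter windows, from 250 bases before to 50 after the start, were listed for 17492 of 21887 protein-coding genes (21263 windows, none on chromosome 18). Windows overlapped by a wild-type-only region and by a shared region were alike in CpG content, with a median of 25 CpGs per window and 64.3% GC in both, against 4 CpGs and 50.0% GC in windows with no region of the arm. Both classes thus sat on CpG-rich promoters. The letters GGGCGG, the GC box of SP and KLF factors, occurred on either strand in 76.1% of wild-type-only, 72.0% of shared and 46.2% of all windows. CCGGAAG, an ETS-type motif, occurred in 21.9%, 18.7% and 11.6%, and TATAAA in 4.74%, 5.78% and 12.6%.

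CACGTG was the motif that separated the classes most among the 4 searched. It occurred in 9.66% of wild-type-only windows, 17.97% of shared windows and 24.2% of windows with a region in all 4 lists, beside 7.84% of all windows and 4.14% of those with no region. None of the 4 motifs contains another, although matches of different motifs can share letters, and each was searched on both strands. A match is a string of letters and no measured site.

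The FLAG lists, which the classes did not use, gave a readout with another reagent on cells with tagged TET2. A peak of both FLAG-TET2 lists lay in 74.9% of wild-type-only, 46.1% of shared and 2.33% of knockout-only regions. The share was 31.9% in regions of 1 wild-type list, 38.7% in regions with a peak in all 4 lists and 44.9% over all regions of the arm. The classes also differ in how many lists a region had to appear in. Parental replicate 1, from cells without the tag, had a peak in 38.3% of wild-type-only, 45.2% of shared and 5.67% of knockout-only regions. For parental replicate 2 these shares were 13.7%, 16.2% and 1.20%. Over all regions of the arm the parental shares were 30.3% and 10.1%. Among wild-type-only regions, the share with both FLAG-TET2 lists was 97.4% in the strongest 10% and 49.3% in the last. Among shared regions it also fell with rank, from 77.6% to 15.7%. The 4 FLAG-resin lists differed in length, from 10122 to 63578 peaks, and these shares were not tested over samples.

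Genes were given to regions by the nearest protein-coding span within 50 kb, which says nothing of regulation. Of the 21887 protein-coding genes, 6668 (30.5%) were nearest gene of at least 1 wild-type-only region and 6255 (28.6%) of at least 1 shared region. At the stricter level of a promoter window overlapped by a region, the counts were 2946 of 17492 genes (16.8%) for wild-type-only regions and 3199 (18.3%) for shared regions. A shared region that overlaps a window can hold wild-type and knockout summits that lie apart. The 268 genes of 14 lists are read against these shares. No test of a list was made, since members and lists were chosen with results of these data known.

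Core pluripotency factors and LIF pathway genes had wild-type-only regions at their promoters more often than all genes. LIF binds the receptor LIFR with its partner gp130 (Il6st), JAK kinases phosphorylate STAT3, and STAT3 activates target genes that include its own inhibitor Socs3; the pathway keeps mouse ES cells undifferentiated. All 14 LIF pathway genes were nearest gene of a wild-type-only region. Of the 13 with a promoter window, 9 had such a region at the window (the receptor gene Lifr, the kinase genes Jak1, Jak2 and Tyk2, the factor Stat3, the inhibitors Socs1 and Socs3, the phosphatase gene Ptpn11 and the kinase gene Pim1) and 1 had a shared region (Pim3).

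At Stat3 the wild-type-only region (chr11:100939247-100940010) had folds of 12.9 and 10.8 in wild-type replicates 1 and 2. At Socs3 the promoter region (chr11:117969024-117969640) had 12.1 and 9.12, and at the Pim1 promoter (chr17:29490166-29491044) the folds were 12.2 and 7.39. The peaks at Jak1, the weakest of the 9, had folds of 4.28 and 3.81. Over the 9 promoter regions the folds had a median of 7.10 in replicate 1 and 6.22 in replicate 2. All 9 had a peak in FLAG-TET2 replicate 1 and 7 in replicate 2, and 7 had a peak in parental replicate 1. The shared region at Pim3 had wild-type folds of 7.73 and 4.92, and a fold of 7.39 in knockout replicate 2.

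The strongest LIF pathway regions lay away from the promoters. A region 38.8 kb from the Pim1 span had folds of 15.1 and 17.6 and a peak in all 4 FLAG-resin lists, and a region 2.39 kb from the Socs3 span had 16.2 and 11.9. Socs3, with a span of 4.26 kb against a median of 17.2 kb over all protein-coding genes, was nearest gene of 9 wild-type-only regions. Of these 9, 1 lay inside the span, and the others were given to Socs3 as the nearest gene within 50 kb.

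Among the core pluripotency genes 17 of 20 were nearest gene of a wild-type-only region, and 8 of 12 with a promoter window had such a region there. These were Pou5f1, Sox2 and Nanog, whose products form the core of the pluripotency network, the RNA-binding genes Lin28a and L1td1, and the transcription factor genes Zfp281, Thap11 and Max. At the Pou5f1 promoter (chr17:35505645-35506215) the folds were 22.7 and 10.1, at Nanog (chr6:122707119-122707676) 14.8 and 6.35, and at Sox2 (chr3:34649772-34650558) 8.43 and 4.90. Folds over the 8 ran from 4.61 to 22.7 in replicate 1 and from 3.56 to 10.1 in replicate 2, with the 3 lowest in each replicate at Zfp281, Thap11 and L1td1. Each FLAG-TET2 list held a peak in all 8, and so did parental replicate 1, without the tag, while parental replicate 2 held a peak in 3. With peaks of −log10 q of at least 5 alone, 4 promoters of the list had a wild-type-only region.

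The promoters of Utf1, Trim28 and Tdgf1, a chromatin-associated factor, a corepressor and a co-receptor for Nodal, had shared regions. Trim28 had wild-type folds of 12.2 and 7.64, and a fold of 7.55 in knockout replicate 2, and Tdgf1 had 15.1 and 9.05 in wild type and 7.12 in knockout replicate 2. The Tdgf1 folds came from different places in a merged region of 1760 bp. The wild-type summits lay at −1030 and −1476 bp from the start, outside the promoter window, and the knockout summit at −32 bp. Away from promoters, a wild-type-only region 2.76 kb from Max had folds of 29.8 and 19.8, and one 16.0 kb from Sox2 had 14.5 and 13.6.

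Germline genes had the opposite pattern. Their products act in meiosis, in the piRNA pathway and in sperm formation, and in most other cells many of their CpG-rich promoters are methylated. Of 17 genes, 2 were nearest gene of a wild-type-only region and 15 of a shared region. None of the 16 with a promoter window had a wild-type-only region there (exact 95% interval 0 to 20.6), and 11 (68.8%, exact 95% interval 41.3 to 89.0) had a shared region. The 11 counted Sycp1, Sycp3 and Hormad1 of the meiotic chromosome axis and synaptonemal complex, the RNA regulators Dazl and Ddx4, and the piRNA pathway genes Mael and Tdrd1. The others were the testis genes Stk31, Tex101, Slc25a31 and Brdt.

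These peaks ranked high in lists of both genotypes. At Stk31 (chr6:49395258-49396014) the wild-type folds were 16.2 and 12.6 and the knockout folds 19.5 and 27.1. At Hormad1 (chr3:95559442-95559962) they were 23.8 and 16.9 against 17.5 and 22.6, and at Tdrd1 (chr19:56826047-56826556) 11.9 and 14.2 against 19.6 and 25.1. Every list thus held a peak at these 3 promoters.

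The other germline promoters followed. Of the 11 regions 10 had a peak in all 4 lists, and the exception was Tex101, which had peaks in wild-type replicate 1 (7.10) and knockout replicate 2 (10.0) alone. In knockout replicate 2 the folds had a median of 17.99 and 10 of the 11 peaks were in the strongest 10% of the list. In knockout replicate 1, the median was 13.1 and 5 of 10 were in the strongest 10%. The medians in wild-type replicates 1 and 2 were 14.1 and 11.8, with 9 of 11 and 7 of 10 peaks in the strongest 10%. Leaving out any 1 of the 4 lists left 10 or 11 of these promoters with a shared region and none with a wild-type-only region.

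With the FLAG resin, 7 of the 11 regions had a peak in FLAG-TET2 replicate 1 and 1 in replicate 2, while 6 had a peak in parental replicate 1 and 0 in parental replicate 2. Over all shared regions the shares were 72.0% and 46.5% for FLAG-TET2 replicates 1 and 2. For the parental replicates they were 45.2% and 16.2%. The letters CACGTG occurred in 12 of the 14 windows that the 11 regions overlap and in 14 of all 20 germline windows, against 7.84% of all windows. The 14 windows had a median of 24 CpGs, beside 25 over all shared windows. What the antibody or the procedure enriched there was not tested.

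**Figure D4:**
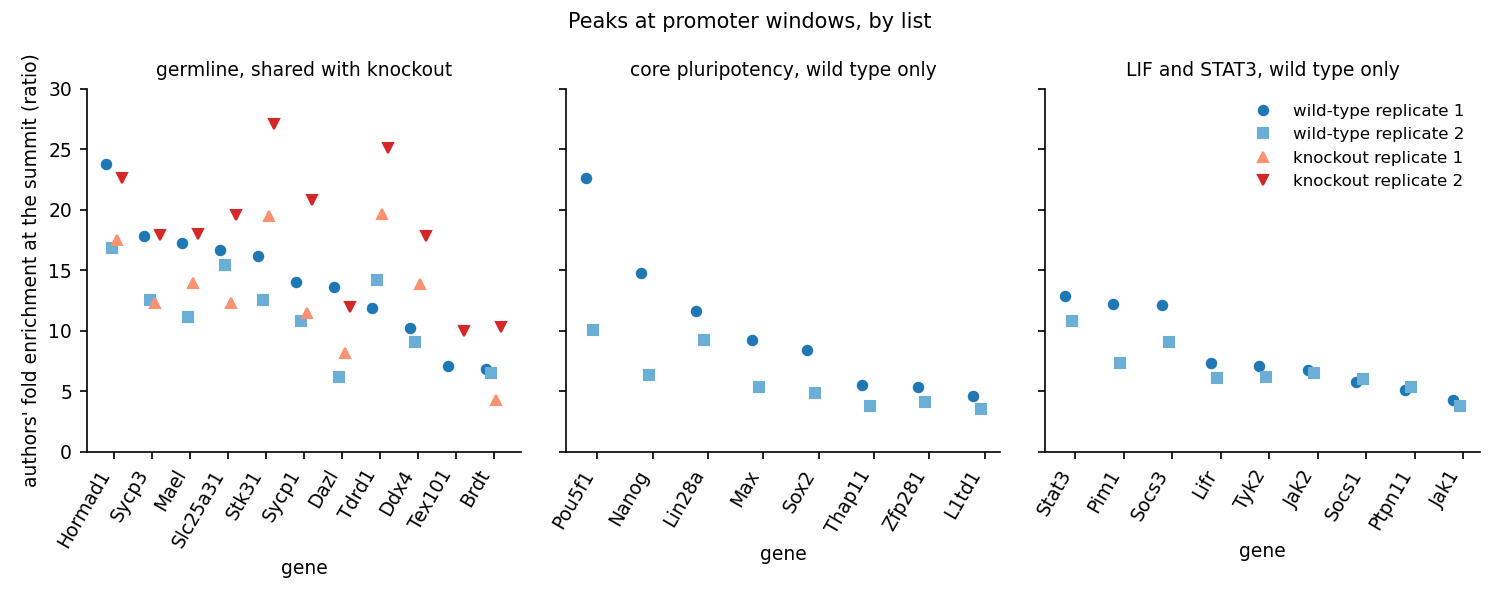
Authors' fold at the summit (vertical axis, a ratio) of the peak of each list at promoter windows of germline genes with shared regions and of core pluripotency and LIF pathway genes with wild-type-only regions. Each gene has up to 4 points, 1 per list; a missing point means no peak. Folds are comparable within a list, not between lists.

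Other lists fell between these. In the DNA methylation and demethylation list 9 of 18 genes with a promoter window had a wild-type-only region there and 4 a shared one, and 8 of the 9 wild-type-only regions had a peak in parental replicate 1. Those with a wild-type-only region included the dioxygenase genes Tet1 and Tet2, the glycosylase genes Neil1 and Mbd4, and the methyltransferase genes Dnmt1 and Dnmt3a. Ogt, which encodes the glycosyltransferase that binds TET2, Zfp57, a keeper of imprints, and Uhrf1, the partner of DNMT1, completed the 9. Uhrf1 also had a shared region at another of its listed starts, and the other shared regions were at Apex1, Uhrf2 and Cxxc4. Cxxc4, which encodes the CXXC protein IDAX that binds TET2, had wild-type folds of 15.1 and 10.6 and knockout folds of 13.1 and 18.2, so its promoter peak was strong in all 4 lists.

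Tet1 itself was nearest gene of 9 wild-type-only regions and of 0 shared regions. The strongest lay 9.24 kb from its span (chr10:62896712-62897221), with folds of 17.6 and 12.5. Its promoter region (chr10:62887385-62887658) had folds of 8.38 and 8.71.

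Polycomb complexes place the silencing marks of histone H3 and H2A. Of 20 Polycomb genes with a promoter window, 12 had a wild-type-only region there and 7 a shared one, and 9 of the 12 wild-type-only regions had a peak in parental replicate 1. Subunits of the same complex were on both sides. The PRC2 genes Eed, Ezh1 and Jarid2 had wild-type-only promoter regions, while Ezh2 and Suz12 had shared ones, with folds in knockout replicate 2 of 9.60 and 7.10. Of the PRC1 genes, Ring1 and Rnf2 had wild-type-only and Pcgf6 and Phc1 shared regions.

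For WNT signalling, which the GSK-3 inhibitor in the medium activates, 6 of 12 genes with a promoter window had a wild-type-only region there and 3 a shared region. The TCF factor genes Tcf7, Tcf7l1, Tcf7l2 and Lef1, the inhibitor Axin2 and the receptor gene Fzd5 were wild-type-only, and Ctnnb1, which encodes beta-catenin, and the target gene Sp5 were shared. Lef1 had a region of each kind. At Ctnnb1 the folds were 14.1 and 13.3 in the wild-type lists, with 7.15 in knockout replicate 2.

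In the FGF and ERK feedback list 4 of 12 genes with a window had a wild-type-only region there (the ligand gene Fgf4, and Spred2, Etv5 and Il17rd) and 3 a shared region (Spry1 and the ERK phosphatase genes Dusp5 and Dusp6). At Dusp6 the knockout folds of 11.7 and 14.6 stood beside wild-type folds of 6.14 and 7.60. The summit lay at −104 bp from the start in wild-type replicate 1 and at 386 bp in replicate 2. In the knockout lists it lay at 417 and 379 bp. The MEK inhibitor was present in all cultures.

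The naive pluripotency factors had wild-type-only regions near 13 of 16 genes but at the promoter of 2 of 10 genes with a window, Tfcp2l1 and Zfp42. The KLF factor genes Klf2 and Klf4 and the AKT coactivator Tcl1 had shared promoter regions. At Klf4 the folds were 18.3 and 15.0 in the wild-type lists, with 5.20 in knockout replicate 2. The wild-type summits there lay at −88 and −65 bp from the start and the knockout summit at −574 bp, outside the promoter window. The leading regions of this list were distal or intragenic: a region inside Esrrb (chr12:86470931-86471620) had folds of 22.1 and 21.0 and a peak in both parental lists, and Esrrb was nearest gene of 9 wild-type-only regions. A region 2.37 kb from Klf2 (chr8:72316041-72316689) had 17.9 and 13.3.

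Lists of genes used mainly in other cells or stages are read against the same shares of all genes. These were 16.8% with a wild-type-only and 18.3% with a shared promoter region. The formative and hematopoietic lists were near the 16.8%. The formative and primed list had 2 of 10 (Sall2 and Dnmt3a) with 3 shared, and the hematopoietic list 2 of 13 (Flt3 and Hhex) with 4 shared (Runx1, Cebpa, Kit and Ikzf1). Early lineage factors had 0 of 11 with 2 shared (Sox1 and Neurog1), and fibroblast genes, which stand for feeder cells, 0 of 9 with 1 shared (Vim). Imprinted genes had 0 of 15 wild-type-only and 6 shared. At Igf2r the wild-type folds were 26.6 and 14.7 and the knockout folds 18.5 and 31.6. Cytosolic ribosomal protein genes, active in every cell, had 4 of 24 wild-type-only and 7 shared, the former close to the share over all genes.

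**Figure D5:**
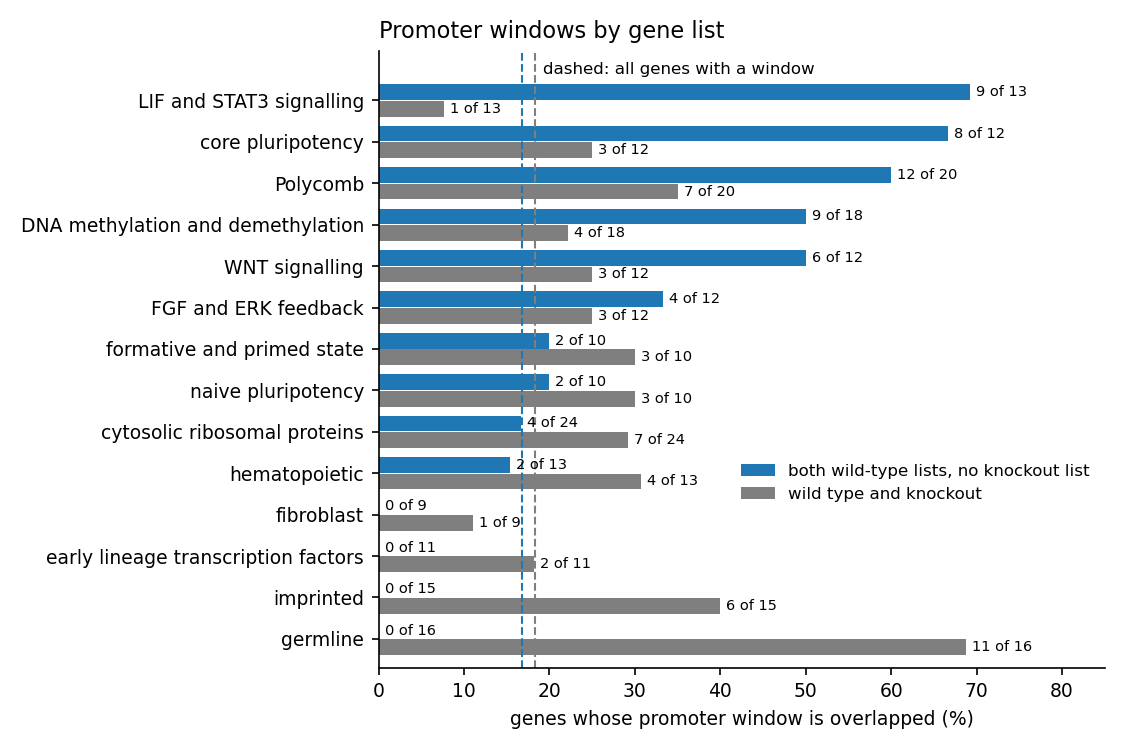
Share of genes of each list with a promoter window that a wild-type-only region (blue) or a region shared with the knockout (grey) overlaps (horizontal axis, percent), with the counts beside the bars. Dashed lines are the shares over all genes with a window, 16.8% and 18.3%; LIF pathway genes stand at 9 and 1 of 13, germline genes at 0 and 11 of 16.

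The counts at promoters depended on single lists to different degrees. Without knockout replicate 2, no promoter of the LIF, core, naive, WNT or Polycomb lists had a shared region, whereas 10 of the germline list did. With all lists shortened to 2259 peaks, wild-type-only promoter counts fell to 0 for the LIF and 1 for the core list, and 9 germline promoters had a shared region. At that length 1238 wild-type-only and 560 shared regions remained in all. The matching share over all genes is not given, so the fall cannot be read as particular to these lists.

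The 10 leading wild-type-only regions by rank were mostly intragenic or in gene flanks. The first lay inside Nxn, which encodes a thioredoxin-like protein (chr11:76287186-76287931), with folds of 38.8 and 20.7. The next was 1.35 kb from Lama5, a laminin chain gene (chr2:180227258-180227936), with 34.0 and 24.0. The region inside Gabbr2, a GABA receptor gene, had 35.4 and 20.6. Others lay inside or near Olfr1339, Urb2, Mrps31, Cacna1a, Zyg11a and Gm38469, and of the 10, the region near Zyg11a alone was within 1 kb of a gene start. The FLAG-TET2 lists each held a peak in all 10, and parental replicate 1 held a peak in 3 of them (Nxn, Olfr1339 and Gm38469).

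The genes with the most wild-type-only regions were mostly long. Cacna1a, a calcium channel gene of 302 kb, had 15, Gse1 14 and Foxp4 12, and Myo10, Nav1 and Rbpms had 11 each. The 178 genes with 5 or more had a median span of 103 kb, and 4501 of the 6668 genes had 1. Socs3, Tet1 and Esrrb were among the 10 genes with 9.

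The 5 leading regions with a peak in all 4 lists were at rank 12 or better in every list. The first of them lay inside Rfxank (chr8:70135761-70136138) and held the top peak of 3 lists and the second of wild-type replicate 1, with wild-type folds of 44.2 and 33.1 and knockout folds of 40.3 and 52.7. At the start of Gpc2 (chr5:138279904-138280776) the wild-type folds were 52.2 and 32.9 and the knockout folds 41.7 and 51.5. The others were near Epha2, near Pgpep1 and inside Zfp541. The regions at Rfxank and Pgpep1 had no FLAG-TET2 or parental peak, and none of the 5 had a peak in FLAG-TET2 replicate 2.

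Most knockout-only regions, 2526 of 2665, had a peak of knockout replicate 2 alone. The 138 found in both knockout lists had a median width of 230 bp and 8.70% of them lay at a gene start. The leading one, inside Zfp995 (chr17:21895469-21895670), had folds of 15.0 and 20.3, and the next 3 lay 344, 372 and 392 kb from the nearest gene spans, Slco6d1, Sox11 and Kcnd2. None of the 5 leading knockout-only regions had a FLAG-TET2 or parental peak.

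The Tet2 gene (chr3:133463677-133545136) carried 8 and 4 peaks in wild-type replicates 1 and 2 and 0 and 1 in knockout replicates 1 and 2. Of the 8 merged regions over it 3 were wild-type-only. That at its promoter (chr3:133544104-133544820) had folds of 12.2 and 7.39, and those at chr3:133534095-133534475 and chr3:133518536-133519123 had 16.6 and 9.24, and 9.54 and 5.52. A region at chr3:133524461-133525279 was shared, with wild-type folds of 14.1 and 8.002 and a fold of 8.08 in knockout replicate 2. The other 4 had a peak of wild-type replicate 1 alone. Peaks over the gene measure enrichment and do not check its deletion.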

How the data were processed

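Peak lists of 4 TET2-antibody libraries (wild type and Tet2 knockout, 2 each) were analysed; the 4 anti-FLAG lists served as a second readout, and the input and IgG libraries were not analysed here. Per the submitters' processing notes, the tools were MACS2, Bowtie2, Trimmomatic, DESeq2 and DiffBind and the build mm10; neither versions nor roles are given. The authors called peaks per library, since each deposited list belongs to 1 library. The deposited lists give for each peak a score, the fold over control at the summit (a linear ratio), −log10 of p and of q, and a summit offset; all are the authors' own. The lowest −log10 q of the 4 lists was 2.03. Read counts and depth were not given in the sources used here.

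Peaks on the 21 chromosomes (2 to 10 left out per list) were merged where they shared 1 bp. Genes came from a RefSeq table of GRCm38.p6 that gives spans without strand or exons; gene starts were the listed promoter starts, and either span end for genes with none. The promoter table's strand was checked on 817 overlapping opposite-strand window pairs, all of which were reverse complements. Exact permutation tests compared lists (n = 2 and 2); intervals are Clopper-Pearson at 95%. Named regions were the 10 leading wild-type-only, 5 leading shared by all 4 lists and 5 leading knockout-only regions by percentile of −log10 q, up to 4 members per gene list, the genes with most wild-type-only regions and Tet2; list members with promoter regions, and the pair of list contrasts led with, were chosen after their values were seen. A region that the rule takes is not reported here. The members and lists were chosen with earlier results of these data known. All 268 symbols matched. Merging was tested on simulated peaks. Alternatives were −log10 q of at least 5, lists cut to 2259 peaks, summit windows of 200 bp, merging within 500 bp, other distances (5 kb at starts, 10 kb to genes) and each list left out. Software was Python 3.11.15, pandas 2.3.3, numpy 2.4.6, scipy 1.17.1 and matplotlib 3.10.9.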

Additional observations from a re-analysis of the deposited data

How the results depend on the processing

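The difference in log2 peak number kept its direction under a threshold of −log10 q of at least 5 (2.45, exact permutation p = 0.33), with each list left out (1.20 to 3.58, no test) and with a replicate block on same-numbered lists (2.39, exact sign-flip p = 0.5, the smallest that 2 pairs allow); the labels do not say that the numbers pair cultures. With each list left out in turn, the number of wild-type-only regions ran from 11504 to 29775, of shared regions from 2043 to 8675 and of knockout-only regions from 144 to 5685. The difference in gene-start share ran from -21.0 to -14.9 percentage points, and the share of listed genes near a wild-type-only region (54.5% with all lists) from 54.5% to 78.0%. With all lists cut to 2259 peaks there were 1238 wild-type-only and 560 shared regions and the gene-start difference was -49.0 points; with a distance of 5 kb to the start it was -14.0 points. The stricter threshold, summit windows and merging within 500 bp left the 3 region counts within 1.5 times. Of 84 list counts of genes near wild-type-only regions recomputed under these alternatives 8 moved by more than that, and at promoters, where the alternatives were chosen after seeing the data, 23 of 84 wild-type-only and 26 of 84 shared counts did. The unknown depth limits every count: a region absent from a list had no peak called there, and less binding and less depth cannot be told apart.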

Other observations

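Histone genes, chosen after their values were seen, stood with the shared regions. Of 63 replication-dependent histone genes by symbol, 53 on chromosome 13, 58 had a promoter window, and 20 of these (34.5%) were overlapped by a shared region against 2 (3.45%) by a wild-type-only region, beside 18.3% and 16.8% of all genes with a window. In the stretch of chromosome 13 from 20 to 30 Mb there were 140 shared, 26 wild-type-only, 26 knockout-only and 93 regions of 1 wild-type list. Chromosome 13 had the lowest wild-type-only share of any autosome, 45.5% of its wild-type-only and shared regions.

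Chromosome 8 differed between the genotypes' lists in the share of peaks it held, also seen after the fact: 5.98% and 7.74% in the wild-type lists and 4.96% and 5.16% in the knockout lists. It held 917 wild-type-only regions (7.97% of the class) and 473 shared regions (5.45%), so 66.0% of these were wild-type-only, against 53.6% to 61.8% on the autosomes other than 8 and 13. Of the FLAG-resin lists, FLAG-TET2 replicates held 5.73% and 6.22% of their peaks there and parental replicates 6.19% and 8.25%, so a high share was also seen in a list without the epitope.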
